A study of Mus musculus with 3 samples.

Results

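The miR-17~92 cluster is a polycistron: a single primary transcript, Mir17hg, carries 6 miRNA hairpins, and Drosha and Dicer cut a guide miRNA out of each. The guides fall into groups by their seed, the bases near the 5′ end that pair with target mRNAs. The cluster is known for driving proliferation and for restraining apoptosis. Because the 6 guides leave the same transcript, their levels relative to each other also depend on processing and stability.

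The members were chosen by name, as the 6 guide miRNAs of the cluster. They made up 6 of the 627 mature miRNAs in the count table and filled 8 of its 961 rows, because miR-19b-3p and miR-92a-3p have 2 rows each. All 6 passed a minimum mean of 10 normalized counts, which 587 of the 627 miRNAs passed. The data were 3 small RNA libraries from ovaries of newborn CD1 mice, cultured in vitro for 3 days with 0, 10, or 100 μM di (2-ethylhexyl) phthalate (DEHP), a plasticizer, and described in the series title as postnatal day 3. DEHP was dissolved in DMSO, the 0 μM group received this vehicle, and many ovaries were pooled for each group. The study asked how the plasticizer acts on miRNAs of the perinatal ovary, and here the question is whether the co-transcribed members of the cluster moved alike. There was 1 library for each concentration, so no p-value is given, nothing here measures the variation between cultures, and the 95% intervals cover counting error only. The table counts reads, in which copies made by PCR cannot be told from separate molecules.

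With 1 row for each miRNA, the libraries held 5253367, 5064602, and 5952274 counts at 0, 10, and 100 μM. Counts were divided by median-of-ratios size factors (1.38, 1.35, and 0.546) to give normalized counts. At 100 μM, 3 counts, taken here as the floor, corresponded to 5.50 normalized counts. A log2 ratio compares normalized counts with 0.5 added, and a value below -2 was counted as lower, after the fold threshold in the study's methods. The table held no miRNA under 10 counts at 0 μM, so it cannot show one that was absent there and present at 100 μM. The gonad-enriched miR-202-5p had 41367, 53172, and 9799 counts, and the single liver miRNA examined, miR-122-5p, had at most 22 counts.

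In GENCODE M21 (GRCm38, of which mm10 is another name and the build in the submitters' processing notes), the 6 hairpins lie within 836 bases at chr14:115043671-115044506 on the plus strand, inside exon 2 of Mir17hg. Their order is Mir17, Mir18, Mir19a, Mir20a, Mir19b-1, and Mir92-1. The mature sequences are shown because they define the seed groups and show how little some members differ. They are from RefSeq (GRCm38.p6), 5′ to 3′, with the seed (bases 2 to 8) in capitals.

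mmu-miR-17-5p: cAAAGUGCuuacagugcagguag
mmu-miR-20a-5p: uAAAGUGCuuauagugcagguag
mmu-miR-18a-5p: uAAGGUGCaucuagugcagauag
mmu-miR-19a-3p: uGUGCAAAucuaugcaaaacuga
mmu-miR-19b-3p: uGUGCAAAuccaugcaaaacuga
mmu-miR-92a-3p: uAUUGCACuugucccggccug

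miR-17-5p and miR-20a-5p share a seed, as do miR-19a-3p and miR-19b-3p, while miR-18a-5p and miR-92a-3p have seeds of their own within the cluster. Counted from 1 at the 5′ end, miR-19a-3p differs from miR-19b-3p by a single base, U11C, and miR-17-5p differs from miR-20a-5p by C1U and C12U. miR-19b-3p and miR-92a-3p are also encoded on the X chromosome, in a paralogous cluster, with the same mature sequence. Their counts may thus not come from the chromosome 14 cluster alone, and the part of the X-linked copies was not measured.

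At 100 μM DEHP each of the 6 members was below its level at 0 μM. The difference was 1.45-fold for miR-92a-3p in its row with the higher total (5.52-fold in its other row). It was 21.8-fold for miR-19a-3p and in between for the rest. The log2 ratios of all 587 miRNAs had a median of -0.01 and quartiles of -1.06 and 1.12, so a ratio below 0 was common. At 10 μM, 5 of the 6 were within 0.15 of 0 μM on the log2 scale, and miR-92a-3p was higher. The quartiles of all miRNAs were -0.37 and 0.29 there.

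miR-19a-3p, a miR-19 family member and the lowest of the 6 at 100 μM, had 717 counts at 0 μM, 663 at 10 μM, and 13 at 100 μM. These were 520.3, 492, and 23.8 normalized counts. The 100 μM library was low and the others were alike. The log2 ratio between 100 and 0 μM was -4.42 (95% counting interval -5.37 to -3.67), which left 4.58% of the 0 μM level.

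miR-19b-3p had 7016, 7210, and 333 counts in its row with the higher total. The log2 ratio between 100 and 0 μM was -3.06 (-3.22 to -2.90), or 12.0% of the level. Its second row held 6970, 7166, and 332 counts, within 1% of the first in each library, and the log2 ratio was -3.05. The rows of this miRNA gave the same picture. They share a mature sequence and may hold the same reads, so the second row is not an independent measure.

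miR-20a-5p, of the miR-17 family, whose members are known to target cell cycle regulators such as Cdkn1a, had 18135, 17830, and 1382 counts. The log2 ratio between 100 and 0 μM was -2.38 (-2.46 to -2.30), and 19.2% of the level was left. miR-17-5p, with the same seed, had 9110, 8727, and 1434 counts, a log2 ratio of -1.33 (-1.41 to -1.25) and 39.7% of the level. Both were thus lower at 100 μM, but only miR-20a-5p was beyond -2. miR-18a-5p, the scarcest member at 0 μM, had 300, 265, and 20 counts. The log2 ratio was -2.55, with an interval of -3.30 to -1.92 that reached past -2.

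miR-92a-3p was set apart by its rows. The row with the higher total (row 1) had 21055, 29511, and 5764 counts, and the log2 ratio between 100 and 0 μM was -0.53 (-0.58 to -0.49). The other row (row 2) had 4156, 6395, and 298 counts, and the log2 ratio was -2.46 (-2.64 to -2.30). Row 2 held 19.7% of the count of row 1 at 0 μM, 21.7% at 10 μM, and 5.17% at 100 μM. The row labels carry the same mature name and do not say which precursor each row stands for, so neither row can be given to Mir92-1 on chromosome 14 or to Mir92-2 on the X chromosome. In row 1 miR-92a-3p was the least lowered of the 6. In row 2 the ratio lay beside those of miR-20a-5p and miR-18a-5p, and the intervals of both differences held 0 (0.09, -0.10 to 0.28, for miR-20a-5p minus row 2, and -0.11, -0.86 to 0.57, for miR-18a-5p minus row 2).

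**Figure D1:**
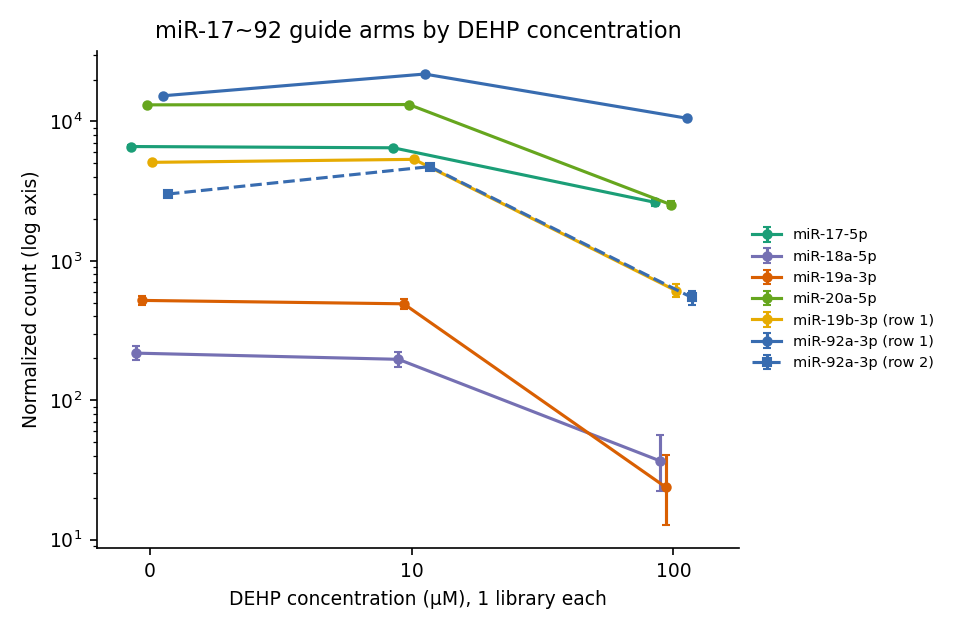
Normalized counts (log axis) of the 6 guide miRNAs in the libraries of 0, 10, and 100 μM DEHP, 1 library each; points are joined for each miRNA, bars are exact Poisson 95% intervals, and both rows of miR-92a-3p are drawn. The lines other than those of miR-92a-3p are nearly level from 0 to 10 μM, and all lie lower at 100 μM, where miR-19a-3p is at 23.8 normalized counts.

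The order of the levels also differed between libraries. At 0 μM row 1 of miR-92a-3p had 15278 normalized counts, and miR-20a-5p (13159), miR-17-5p (6610), miR-19b-3p (5091), miR-19a-3p (520.3), and miR-18a-5p (218) followed. The exact Poisson intervals of neighbors in this order did not overlap. At 100 μM miR-17-5p (2627, 2493 to 2767) and miR-20a-5p (2532, 2400.2 to 2669) overlapped, as did miR-18a-5p (36.6, 22.4 to 56.6) and miR-19a-3p (23.8, 12.7 to 40.7). Both pairs were apart at 0 μM. Counts of different miRNAs also depend on how well each is captured in a library, so the order is one of counts.

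For the comparison of 10 with 0 μM, the 6 log2 ratios ran from -0.15 for miR-18a-5p to 0.52 for row 1 of miR-92a-3p (0.49 to 0.54). Their median was -0.01, and that of all 587 miRNAs was 0.02, with quartiles of -0.37 and 0.29. None of the 6 was below -2 or below -1. Of all miRNAs 0.681% were below -2 and 5.11% below -1. The intervals of miR-17-5p, miR-18a-5p, miR-19a-3p, and miR-20a-5p held 0. miR-92a-3p was at 143% of its 0 μM level in row 1 and at 157% in row 2 (log2 ratio 0.65), so at this concentration both rows were higher. These rows share a mature sequence and may hold some of the same reads, so row 2 is not an independent measure.

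For the comparison of 100 with 0 μM, which shares its control with the one at 10 μM, the median of the 6 log2 ratios was -2.47, and that of all 587 miRNAs was -0.01. Of the members, 4 of 6 were below -2 and 5 of 6 below -1. Of all miRNAs, 9.37% were below -2 and 25.7% below -1. miR-17-5p and row 1 of miR-92a-3p were the members not below -2. With row 2 of miR-92a-3p, 5 of 6 were below -2. In bulk tissue, fewer cells of a type and less of a miRNA in each cell cannot be told apart.

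For the comparison of 100 with 10 μM, which shares the 100 μM library with the one above, miR-19a-3p again had the lowest ratio (-4.34, -5.29 to -3.58) and row 1 of miR-92a-3p the highest (-1.05, -1.09 to -1.01). The median of the 6 was -2.40, and that of all miRNAs was -0.03. Here 4 of 6 were below -2 and 6 of 6 below -1, and 8.69% and 24.7% of all miRNAs were. miR-17-5p had -1.30, miR-20a-5p -2.39, miR-18a-5p -2.41, and miR-19b-3p -3.13. Row 2 of miR-92a-3p had -3.12 (-3.29 to -2.95), and it was 8.69-fold lower than at 10 μM.

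**Figure D2:**
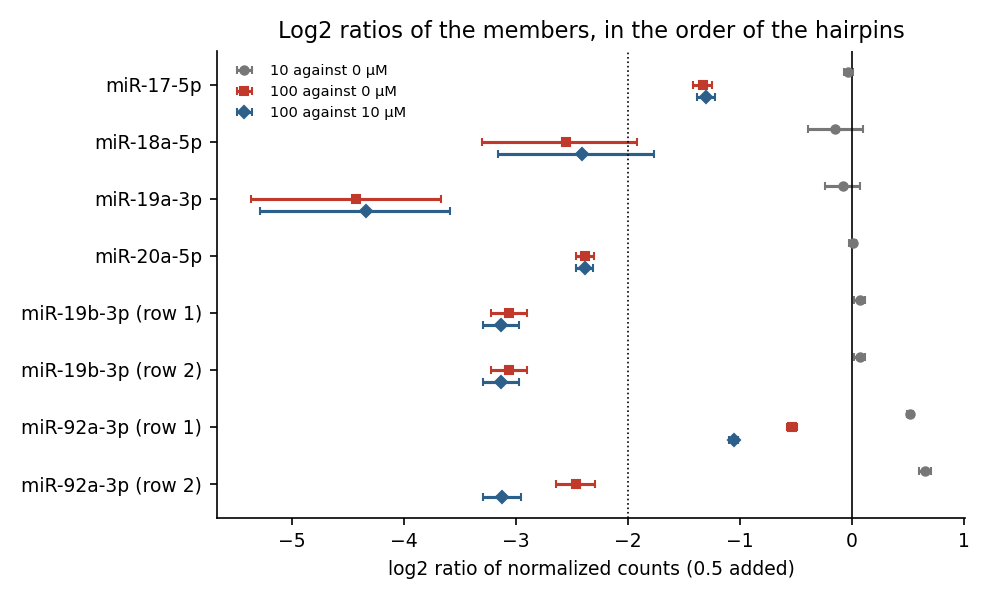
Log2 ratios of normalized counts for each row of the 6 members, in the order of the hairpins on chromosome 14, with 95% counting intervals; gray circles compare 10 with 0 μM, red squares 100 with 0 μM, blue diamonds 100 with 10 μM, and the dotted line marks -2. The 2 rows of miR-92a-3p stand at -0.53 and -2.46 between 100 and 0 μM, and those of miR-19b-3p at -3.06 and -3.05.

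The size of these ratios depended on the scaling between libraries. When libraries were scaled to total counts, the median of all miRNAs between 100 and 0 μM became -1.53, that of the 6 members became -3.97, and all 6 were below -2, as 35.9% of all miRNAs were. The distance of the members' median from that of all miRNAs was -2.45 with the size factors and -2.44 with total counts. A change of scaling shifts all ratios nearly alike, so this distance could hardly change.

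**Figure D3:**
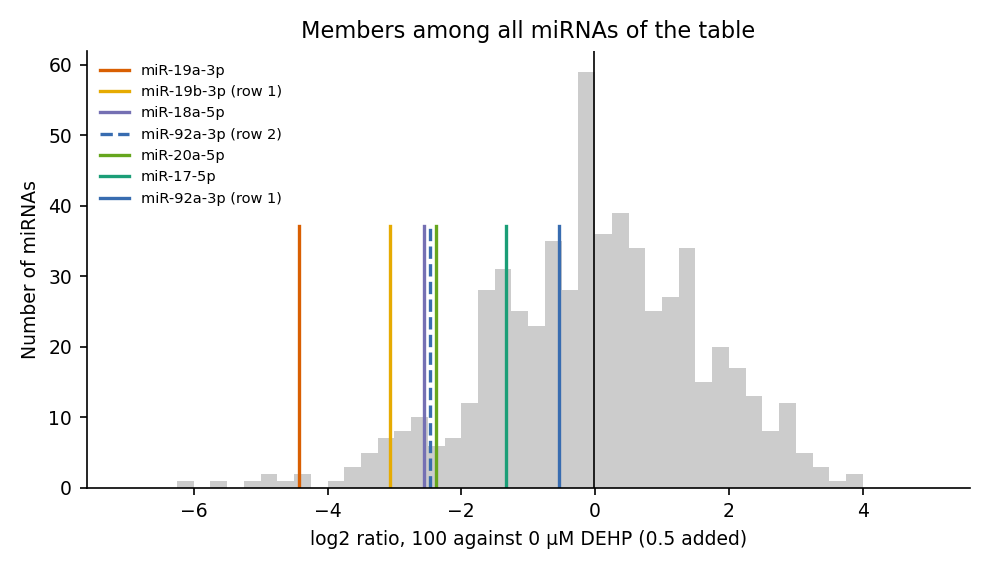
Histogram of the log2 ratio between 100 and 0 μM DEHP for the 587 miRNAs with a mean of at least 10 normalized counts (gray, bins of 0.25); the black line is their median and colored lines are the members, with row 2 of miR-92a-3p dashed. The members spread from -4.42 to -0.53, from the left tail to near the center of the histogram.

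Markers of other cells did not all behave alike. The 2 arms of miR-126a, which mark endothelium, summed to 46170, 52252, and 9855 normalized counts at 0, 10, and 100 μM, and were thus low in the library in which the cluster was low. The 3 red blood cell miRNAs summed to 948, 1009, and 835, and the 2 miR-202 arms, which mark the gonad, to 31188, 40382, and 19964. The miR-202 arms had opposite signs between 100 and 0 μM, with a log2 ratio of -0.74 (-0.77 to -0.71) for miR-202-5p, which made up most of the sum, and 0.78 (0.67 to 0.89) for miR-202-3p. The 6 germ line miRNAs summed to 37242, 27840, and 317397, of which miR-881-3p was 312245 at 100 μM. Of these 6, 5 were higher at 100 than at 0 μM, while miR-743a-3p, with 1836, 1759, and 344 counts, had a log2 ratio of -1.08 (-1.25 to -0.91). The 3 muscle miRNAs summed to 284, 214, and 480.0. Most of that sum was miR-1a-3p (257, 187, and 462 normalized counts), and miR-206-3p had 26, 28, and 4 counts. Each listed marker had at least 2 counts in each library. The part of cell make-up in the ratios of the cluster was not tested.

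Differences between members of the same libraries do not depend on the scaling. They were computed as ratios of ratios from the counts with nothing added, with exact conditional 95% intervals. Among the 15 pairs of members, the interval excluded 0 for 7 pairs between 10 and 0 μM, 13 between 100 and 0 μM, and 13 between 100 and 10 μM. Without miR-92a-3p it did so for 2, 8, and 8 of 10 pairs. At 10 μM the largest difference among these 10 was 0.22 on the log2 scale, between miR-18a-5p and miR-19b-3p. Its interval held 0 (-0.47 to 0.03, for miR-18a-5p minus miR-19b-3p). At 100 μM against 0 μM the largest was 3.12, between miR-17-5p and miR-19a-3p (2.33 to 4.04). Each of these statements is about 3 libraries, since no replicate exists. The 15 pairs reuse the ratios of the same members, and their intervals hold counting error only. The same share was not computed for pairs of other miRNAs. The numbers of pairs thus cannot say whether the members moved more or less alike than other miRNAs did.

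Within the miR-19 seed, miR-19a-3p was lower than miR-19b-3p by a further 1.39 between 100 and 0 μM (difference -1.39, -2.32 to -0.58). The count of miR-19a-3p was 10.2% of that of miR-19b-3p in the 0 μM library (exact interval 9.45 to 11.0). It was 9.20% in the 10 μM library (8.48 to 9.96) and 3.90% in the 100 μM library (2.06 to 6.77). These sequences, printed above, differ at position 11 only. How reads with a mismatch were counted is not given in the sources used here, so the split of reads between them is uncertain.

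Within the miR-17 seed, miR-17-5p was less lowered than miR-20a-5p by 1.05 (0.93 to 1.16). miR-17-5p had 50.2% of the count of miR-20a-5p without DEHP (49.0 to 51.5). With 10 μM it had 48.9% (47.7 to 50.2), and with 100 μM 104% (96.3 to 112). The pair that did not separate was miR-18a-5p and miR-20a-5p (difference -0.19, -0.93 to 0.47), and the interval for miR-18a-5p and miR-19b-3p also held 0 (0.49, -0.26 to 1.17). Both intervals are wide, because miR-18a-5p had 20 counts at 100 μM. miR-19a-3p and miR-20a-5p, whose hairpins are neighbors on the transcript, differed by more (difference -2.07, -2.99 to -1.28).

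Seen as shares of the summed counts of the 6 members, with row 1 of miR-92a-3p, the make-up of the cluster differed between all 3 libraries. miR-92a-3p held 37.4% (37.0 to 37.8) at 0 μM, 46.0% at 10 μM, and 64.4% (63.4 to 65.4) at 100 μM. miR-20a-5p held 32.2%, 27.8%, and 15.4% (14.7 to 16.2). miR-19b-3p held 12.5%, 11.2%, and 3.72%, and miR-19a-3p 1.27%, 1.03%, and 0.145% (0.077 to 0.248). miR-17-5p held 16.2%, 13.6%, and 16.0%. With row 2 of miR-92a-3p in its place, miR-92a-3p held 10.5%, 15.6%, and 8.56%, and its share thus differed more from 0 μM at 10 μM than at 100 μM. In that sum, miR-17-5p held 41.2% at 100 μM (39.6 to 42.9), above 23.1% at 0 μM, and its interval overlapped that of miR-20a-5p (39.7%, 38.1 to 41.4).

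**Figure D4:**
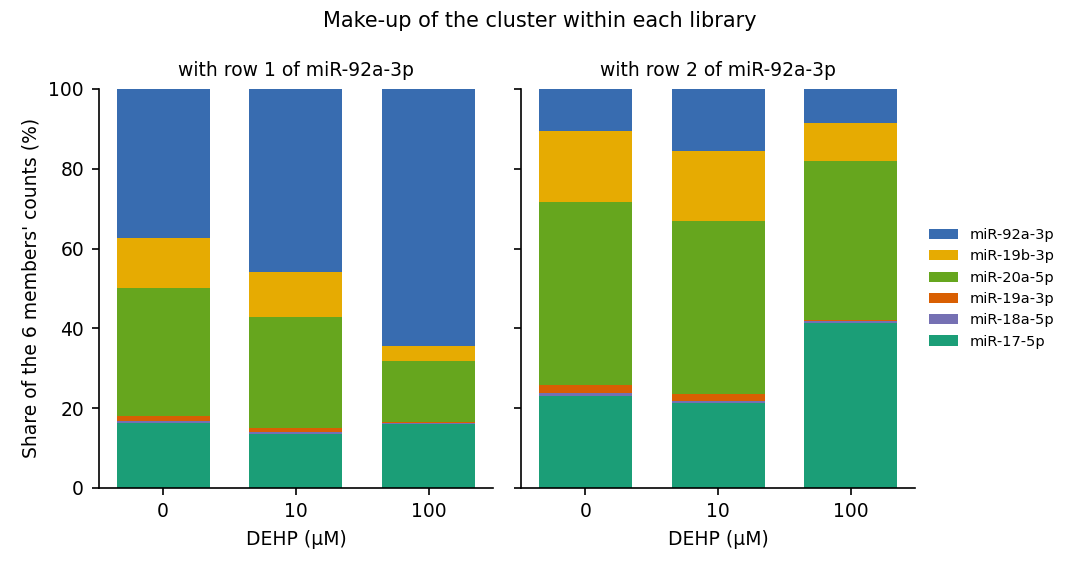
Share of each member in the summed counts of the 6 members (percent) in the libraries of 0, 10, and 100 μM DEHP, with row 1 (left) or row 2 (right) of miR-92a-3p; each color is a member. The share of miR-92a-3p at 100 μM is 64.4% on the left and 8.56% on the right, while the miR-19 pair is smaller at 100 μM on both sides.

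As a share of the library, the 5 members other than miR-92a-3p summed to 0.672% of counts at 0 μM (exact interval 0.665 to 0.679), 0.685% at 10 μM, and 0.0535% at 100 μM. Their summed normalized counts were 25599, 25739, and 5830, so the 10 μM library stood at 101% and the 100 μM library at 22.8% of the 0 μM level.

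The passenger arm, the other strand of each hairpin, gives a second measure of the same precursors. Of the 6 passenger arms, 4 had a row, and miR-19a-5p and miR-19b-1-5p were not analysed here. The sequences of the 4 are shown since they are the partners of the guides above, with bases 2 to 8 in capitals.

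mmu-miR-17-3p: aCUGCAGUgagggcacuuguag
mmu-miR-18a-3p: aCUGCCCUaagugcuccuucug
mmu-miR-20a-3p: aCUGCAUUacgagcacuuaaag
mmu-miR-92a-1-5p: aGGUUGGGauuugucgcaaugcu

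miR-17-3p had 629, 474, and 37 counts, and its log2 ratio between 100 and 0 μM was -2.74 (-3.27 to -2.27), further from 0 than that of its partner miR-17-5p. The guide had 14.5 counts for each passenger count in the 0 μM library (13.4 to 15.7). This number was 18.4 in the 10 μM library (16.8 to 20.2) and 38.8 in the 100 μM library (28.0 to 55.3), so the arms of Mir17 did not keep a constant ratio. For Mir18 the order was the opposite. miR-18a-3p had 27, 50, and 9 counts, and the guide had 11.1 counts for each passenger count without DEHP (7.48 to 17.1). With 10 μM there were 5.30 (3.91 to 7.32), and with 100 μM 2.22 (0.967 to 5.54). The intervals of 0 and 10 μM did not overlap there, and neither did those of 0 and 100 μM.

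miR-20a-3p had 34, 24, and 4 counts, too few to separate the arm ratios, which were 533 (382 to 770), 743 (499 to 1160), and 346 (135 to 1270). miR-92a-1-5p, the passenger that only the chromosome 14 hairpin makes, had 20, 25, and 0 counts. With its 100 μM count set to the floor of 3, it was 2.64-fold lower than at 0 μM and 3.37-fold lower than at 10 μM. Counting error allowed smaller falls, since the upper 95% limits of the log2 ratios were -0.97 and -1.35. This arm bears on Mir92-1 without the X-linked copy, and its direction was that of the guides, from low counts.

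Other loci make miRNAs with the same seeds, and 8 of them were in the table. Their sequences are shown because they share a seed with a member but are not made from Mir17hg, and the seed is again in capitals.

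mmu-miR-106a-5p: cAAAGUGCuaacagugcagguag
mmu-miR-20b-5p: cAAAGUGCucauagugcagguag
mmu-miR-106b-5p: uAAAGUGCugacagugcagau
mmu-miR-93-5p: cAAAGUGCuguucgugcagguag
mmu-miR-25-3p: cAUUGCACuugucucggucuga
mmu-miR-92b-3p: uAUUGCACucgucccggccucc
mmu-miR-363-3p: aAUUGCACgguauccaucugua
mmu-miR-32-5p: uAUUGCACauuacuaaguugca

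All 6 miRNAs with the miR-17 seed were lower at 100 than at 0 μM, with log2 ratios from -2.69 to -0.96 and a median of -1.59, beside -0.01 for all 587 miRNAs. Of the 6, 2 were below -2, as were 9.37% of all miRNAs, and these were miR-20a-5p and miR-106a-5p. miR-106a-5p, from the X-linked paralog, had 85, 84, and 5 counts and a log2 ratio of -2.69 (-4.41 to -1.47). It differs from miR-17-5p by U10A only, so the split of reads between them is uncertain. Its counts were 0.933% of those of miR-17-5p at 0 μM and 0.349% at 100 μM. miR-20b-5p, from the same paralog, had 126, 133, and 16 counts and a ratio of -1.62 (-2.49 to -0.89). The miR-106b~25 cluster gave miR-106b-5p (-1.56, -1.72 to -1.41) and miR-93-5p (-0.96, -1.03 to -0.89).

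The 5 miRNAs with the miR-92a seed did not share a direction. Their log2 ratios between 100 and 0 μM ran from -3.67 for miR-32-5p (-4.15 to -3.24) to 1.44 for miR-25-3p (1.42 to 1.47). miR-25-3p, made from the miR-106b~25 transcript, had 23808, 29142, and 25661 counts. miR-92b-3p had 202, 253, and 81 counts and a ratio of 0.02 (-0.37 to 0.40), and miR-363-3p had 71, 52, and 11 counts and a ratio of -1.33 (-2.42 to -0.43). Row 1 of miR-92a-3p, at -0.53, was the middle value of these 5.

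**Figure D5:**
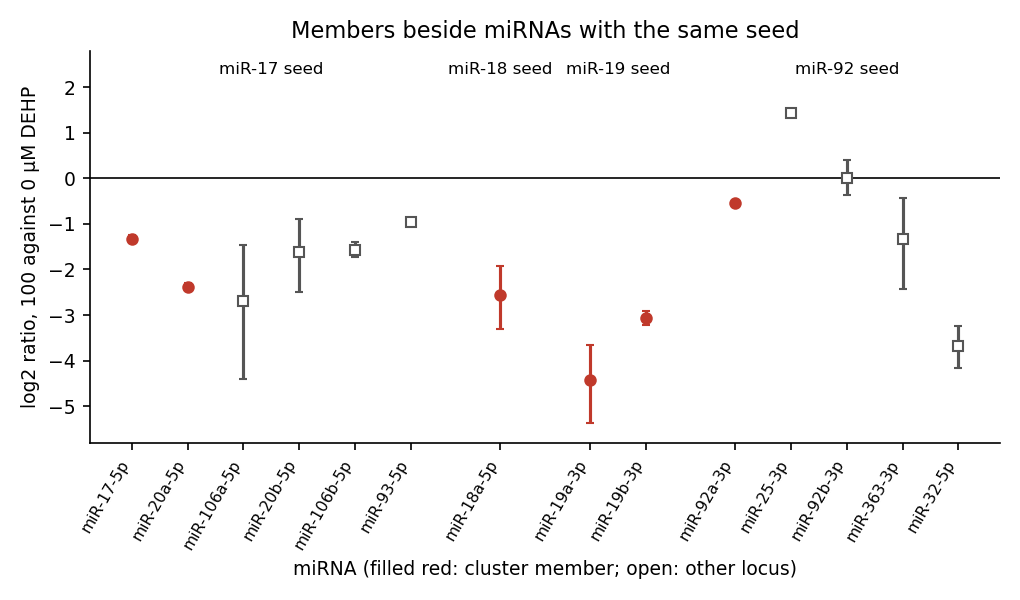
Log2 ratio between 100 and 0 μM DEHP for the 14 miRNAs that carry the seeds of the cluster, with 95% counting intervals; filled red circles are members (row 1 where there are 2 rows) and open squares are miRNAs of other loci. The miR-17 and miR-19 groups lie below 0, and the miR-92 group spans from -3.67 to 1.44.

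The miRNAs outside the cluster whose pattern was most like that of the members were found by the Euclidean distance of their log2 ratios, at 10 and 100 μM against 0 μM, to the median pair of the 6 members (-0.01 and -2.47). Among 581 candidates, each described by these 3 libraries alone, the 5 nearest were miR-1197-3p (distance 0.12), miR-181a-5p (0.16), miR-106a-5p (0.22), miR-154-3p (0.22), and miR-154-5p (0.27). miR-181a-5p, the abundant one among them, had 33988, 30211, and 2617 counts and a log2 ratio of -2.36 (-2.42 to -2.31) between 100 and 0 μM. The counts of miR-1197-3p were 76, 79, and 5, and those of miR-154-3p were 51, 45, and 3, which is the floor. Of the members themselves, miR-20a-5p (0.09) and miR-18a-5p (0.16) were nearest to this median pair. The pair was computed from the members, so their nearness is set by its construction and is not a result. miR-19a-3p (1.96) was far from it, and row 1 of miR-92a-3p was farther still.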

How the data were processed

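Per the authors' methods, linkers and low-quality bases were removed, bowtie2 placed the reads on the mouse genome, and miRDeep2 quantified them. The deposited table holds unnormalized counts, 1 row for each pair of mature miRNA and precursor. The submitters' processing notes name mm10 and DESeq2. Tool versions, the miRBase release and any filter are not given in the sources used here. Columns were matched to concentrations by sample titles.

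Where a mature name had several rows, the one with the highest total entered, and the second rows of miR-19b-3p and miR-92a-3p were analysed apart. DESeq2 1.42.0 gave the size factors (R 4.3.3), and edgeR 4.0.16 gave TMM and upper-quartile factors as alternatives. Other steps used Python 3.11.15. Intervals of ratios and shares at 95% are exact Clopper-Pearson intervals, those of normalized counts are exact Poisson intervals, and those of differences between members are exact conditional intervals. With 1 library for each concentration no test was run. Members and lists were chosen with earlier results of these data known. The named miRNAs are the members, their passenger arms, miRNAs of other loci with the same seeds, the marker lists and the 5 nearest patterns. RefSeq held mature sequences for 529 of 627 names. Other alternatives were size factors over every row, total counts, library sizes without the 10 most abundant miRNAs, the second or summed rows, 1 or 10 added to the normalized counts, a minimum of 100 or none, and a threshold of -1. The scripts were tested on simulated data.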

Additional observations from a re-analysis of the deposited data

How the results depend on the processing

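No paired analysis was possible because each concentration has 1 library, which also means that no replicate could be omitted. The direction of the members at 100 μM was the same in all alternatives run: all 66 values of single members against 0 μM and all 66 against 10 μM were below 0. Some of these values only repeat the main ones. All 6 members passed a minimum of 100, and the row alternatives bear only on miR-19b-3p and miR-92a-3p. The sizes did depend on the alternatives. With total counts the median of the 6 became -3.97 between 100 and 0 μM and -3.92 between 100 and 10 μM, and with library sizes that omit the 10 most abundant miRNAs they became -3.23 and -3.20. Both scalings lowered the median of all miRNAs at 100 μM too, to -1.53 and -0.78 against 0 μM. With the other row of miR-19b-3p and miR-92a-3p, the span of the 6 log2 ratios between 100 and 0 μM was 3.09, from 3.89 with the first rows, because the ratio of miR-92a-3p moved. Of the values that summarize the members (medians, spans and numbers below -2) under an alternative, 97 stayed within 1.5 times or within the range set by counting error, and the 5 above did not. Some of the 97 could not move, because the changes of the minimum kept all members and scaling hardly alters a span. Depth limits miR-18a-5p, miR-19a-3p and the passenger arms most, with 20 counts or fewer at 100 μM for each of them but miR-17-3p.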

Other observations

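With row 1 of miR-92a-3p, the base composition of the 6 guides went with their ratios. Ordered by the G and C content of the mature sequence, they were miR-19a-3p (34.8%), miR-19b-3p and miR-20a-5p (39.1% each), miR-18a-5p (43.5%), miR-17-5p (47.8%), and miR-92a-3p (57.1%), and the log2 ratios between 100 and 0 μM were -4.42, -3.06, -2.38, -2.55, -1.33, and -0.53 in row 1. Across these 6 miRNAs, with that row, Pearson's r was 0.93 and Spearman's rho 0.90. Across the 14 miRNAs with the same seeds, which include these 6, they were 0.77 and 0.84. These points share libraries, and several nearly share a sequence, so the values are a description. Across the 497 miRNAs with a mean of at least 10 normalized counts and a RefSeq sequence (84.7% of 587), r was 0.15 and rho 0.17. Row 2 of miR-92a-3p has the same mature sequence as row 1 and a ratio of -2.46, which is out of this order. The correlations were not computed with row 2. Of the passenger arms, miR-17-3p and miR-18a-3p both have 54.5% G and C. Their ratios were -2.74 and, from few counts, -0.24 (-1.52 to 0.88). The part of base composition in the ratios was not tested.

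The gap between the 2 rows of miR-92a-3p was larger than that of any other name with several rows in the table that passed the minimum. Of 79 mature names with several rows, 70 had more than 1 row at a mean of at least 10 normalized counts. The log2 ratios of the rows of a name, between 100 and 0 μM, spanned a median of 0.0018, 57 of 70 names spanned less than 0.1, and 3 spanned more than 1. miR-92a-3p was first with 1.93, and miR-299b-3p (1.73) and miR-466i-5p (1.52) followed. miR-19b-3p spanned 0.0052. In the difference of the 2 rows of miR-92a-3p the counts were 16899, 23116, and 5466 at 0, 10, and 100 μM.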
